A study of Drosophila melanogaster with 12 samples.

Results

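A set of 13 transcripts was bright in wild-type testes and lay at or near the floor of the array in all 3 genotypes that stop spermatogenesis before the meiotic divisions. The set was chosen by the measured values. Of 18769 Drosophila probe sets, each a group of short probes that reads 1 transcript or a part of it, it takes those with a mean log2 signal of at least 8 over the 3 wild-type arrays and a mean below 3 in Med22RNAi, in aly and in sa testes. These 13 probe sets were 0.232% of the 5610 probe sets with a wild-type mean of at least 8. They name 12 genes, all protein coding, and 1 probe set has no gene symbol in the annotation used here. Because the same 12 arrays chose the members, the levels of the members and of the probe sets beside them are a description, with no test.

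Flies were grown at 25 °C, testes were taken from adults at an age of 1 day, freed of accessory glands and seminal vesicles, and their RNA was hybridised to Affymetrix Drosophila 2.0 arrays, 3 for each of 4 genotypes. In Med22RNAi testes, RNAi against Med22, a subunit of the Mediator complex, was driven together with Dicer2 by Bam-Gal4, which acts in late spermatogonia and spermatocytes. The other arrest genotypes were aly2/aly5P, which lacks the function of a subunit of tMAC, the testis-specific meiotic arrest complex, and sa1/sa2, which lacks that of a tTAF, a testis form of a TFIID subunit. The control arrays carry the label y,w mutant, whereas the methods refer to a red,e data set, and are called wild type here. The 3 Med22RNAi arrays, described as biological replicates, were the new ones of the study, so the knockdown and the array set cannot be told apart, and there was no array of the driver alone. For the 9 published arrays no source used here says that replicates came from separate flies, so p-values may reflect technical spread only.

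Primary spermatocytes switch on a large set of genes whose products are used later, when round spermatids grow a flagellum, reshape their mitochondria and repack their chromatin. tMAC and the tTAFs are needed for much of this switch, and Mediator links transcription factors bound to DNA with RNA polymerase II. Loss of any of these functions stops germ cells at the end of the spermatocyte stage. In whole testes, the absence of later cells and less RNA per cell cannot be told apart.

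The deposited values are on a log2 scale and were made with GCRMA, which corrects for background, normalizes the arrays and gives 1 value per probe set. The lowest value on any array was 2.11, and 45.8% to 49.6% of the probe sets on an array lay below 3, so a mean below 3 lies in the dim end of the scale on every array. Arrays of 1 genotype correlated at r = 0.983 to 0.997 across probe sets. Of 5 spermatocyte markers, 0 had a mean below 3 in any arrest genotype. By the rule for calls used throughout (limma, adjusted p under 0.05 and at least 4-fold), 1 was higher in each arrest genotype, and 2 were lower in aly, against 0 in Med22RNAi and 0 in sa. Over all probe sets, 9.02% were called lower in Med22RNAi, 10.3% in aly and 7.69% in sa. Those called higher were 11.3%, 14.3% and 9.52%. The signal of fest, a gene transcribed in spermatocytes, was 14.83 in Med22RNAi, 12.97 in aly and 14.01 in sa, against 14.02 in wild type, and that of Rbp4, a spermatocyte RNA-binding protein, was 13.42, 14.42 and 13.63, against 10.92 in wild type. The meiotic genes bol and CycB were called lower in aly, at 8.46 and 4.27, against 13.14 and 7.70 in wild type. In Med22RNAi and sa their changes were under the fold limit, with bol lower, at 11.26 and 11.62, and CycB higher, at 9.67 and 9.62. The meiotic gene twe was at 6.62 in Med22RNAi, 6.31 in aly and 7.56 in sa, against 7.74 in wild type, also under the fold limit. By in situ hybridization, or RT-PCR for bol, the paper scored these meiotic genes as off in spermatocytes of Med22RNAi and aly, and as on in tTAF mutants. The arrays read whole testes, which is a different measure.

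The 13 members held 117 values on the 9 arrest arrays. Of these, 112 lay below 3, and 28 were at the lowest value of 2.11 when rounded to 2 decimals. The 5 values of at least 3 reached 3.59 at most, with 1 in Med22RNAi, 0 in aly and 4 in sa. On the wild-type arrays the same probe sets lay between 7.44 and 11.13, and no member had an arrest array above a wild-type array. The gap between the lowest wild-type and the highest arrest array was 4.25 to 7.89 on the log2 scale. In the per-array plot of the members the arrest and wild-type arrays therefore form separate groups for each probe set.

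**Figure D1:**
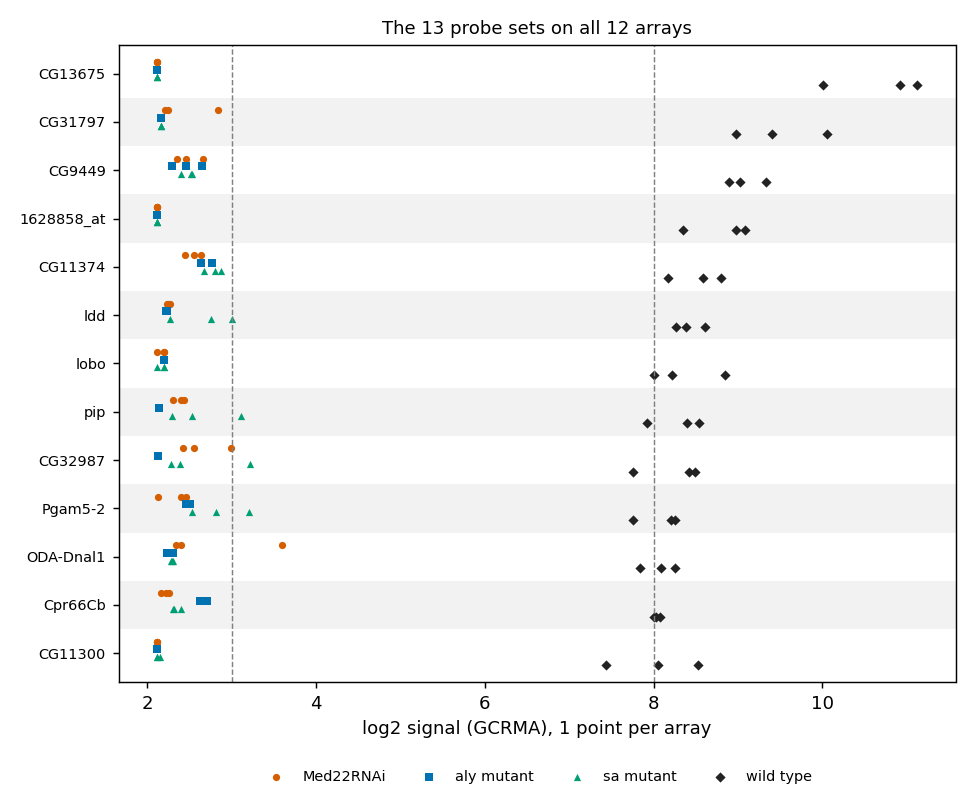
Log2 signal of the 13 probe sets (rows) on each of the 12 arrays, 1 point per array, for Med22RNAi, aly, sa and wild type. The row with an array ID is the probe set with no symbol. Dashed lines mark the limits of 3 and 8, and the arrest arrays reach at most 3.59 while the wild-type arrays start at 7.44.

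Members with a known place in the sperm tail were lobo and ODA-Dnal1. The gene lobo (lost boys) encodes a protein of the sperm flagellum, related to a subunit of the nexin-dynein regulatory complex that links microtubule doublets. Its signal was 2.20, 2.20 and 2.11 in Med22RNAi, 2.20 on all 3 arrays of aly, and 2.20, 2.11 and 2.20 in sa, against 8.222, 8.852 and 8.003 in wild type. Every arrest array of this probe set sat near the floor, at least 41.0-fold lower in each arrest genotype. The further, brighter probe set of lobo, given with those of CG9449 and ldd after the members, gave a smaller difference in Med22RNAi, so the bounds here belong to the member probe set. Such a fold is a lower bound, taken from the wild-type mean with the arrest genotype set at a log2 of 3, and is given only where all arrays of that genotype lay below 3. ODA-Dnal1 encodes a light chain of the outer dynein arm, the motor that bends the axoneme. Its signal was 2.34, 2.40 and 3.59 in Med22RNAi, 2.23, 2.31 and 2.31 in aly, and 2.28, 2.31 and 2.29 in sa, against 7.84, 8.25 and 8.08 in wild type. Med22RNAi replicate 3 was the highest of all member values in the arrest genotypes, and ODA-Dnal1 was at least 33.4-fold lower in aly and in sa.

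Members that encode enzymes were CG9449, Pgam5-2 and pip. CG9449 is a predicted acid phosphatase. Its signal was 2.46, 2.35 and 2.66 in Med22RNAi, 2.65, 2.46 and 2.30 in aly, and 2.53, 2.40 and 2.52 in sa, against 9.03, 9.33 and 8.89 in wild type. This probe set was at least 67.8-fold lower in each arrest genotype, with arrest arrays a little above the floor. Pgam5-2 is a relative of Pgam5, a protein phosphatase of mitochondria. Its signal was 2.46, 2.13 and 2.40 in Med22RNAi, 2.46, 2.46 and 2.51 in aly, and 2.81, 2.53 and 3.21 in sa, against 7.76, 8.20 and 8.25 in wild type. The sa mean of 2.85 was the highest arrest mean of any member, and in Med22RNAi and in aly Pgam5-2 was at least 33.7-fold lower. The gene pip (pipe) encodes a sulfotransferase known for its part in setting the dorsoventral axis of the embryo, where different transcripts of the gene give different forms of the enzyme. The member probe set of pip read 2.44, 2.30 and 2.41 in Med22RNAi, 2.13 on all 3 arrays of aly, and 2.53, 3.11 and 2.29 in sa, against 7.92, 8.40 and 8.54 in wild type. In Med22RNAi and in aly it was at least 39.0-fold lower, and 1 of its sa arrays stood above 3.

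Members that encode a transporter or a carbohydrate-binding protein were ldd and CG11374. The gene ldd encodes an ABC transporter of the ABCA type, membrane proteins that move lipids. Its signal was 2.27, 2.24 and 2.25 in Med22RNAi, 2.23 on all 3 arrays of aly, and 2.27, 2.76 and 3.01 in sa, against 8.27, 8.61 and 8.39 in wild type. In Med22RNAi and in aly this probe set was at least 42.9-fold lower, and in sa 2 of the 3 arrays stood above all arrays of the other arrest genotypes. CG11374 belongs to the galectins, which bind galactose-containing sugars. Its signal was 2.55, 2.63 and 2.45 in Med22RNAi, 2.63, 2.63 and 2.76 in aly, and 2.67, 2.88 and 2.80 in sa, against 8.17, 8.80 and 8.59 in wild type. No arrest array reached 3, and CG11374 was at least 45.9-fold lower in each arrest genotype.

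Members linked to chitin or cuticle were CG13675 and Cpr66Cb. CG13675 has a chitin-binding domain of the kind found in proteins that line the insect gut. Its signal was 2.11 on all 9 arrest arrays, against 11.128, 10.926 and 10.004 in wild type. It had the highest wild-type mean of the members, 10.69 ± 0.60 (SD, n = 3), and was at least 206-fold lower in each arrest genotype. Cpr66Cb encodes a structural protein of the insect cuticle. Its signal was 2.22, 2.17 and 2.25 in Med22RNAi, 2.63, 2.71 and 2.71 in aly, and 2.32, 2.30 and 2.40 in sa, against 8.03, 8.01 and 8.08 in wild type. The wild-type arrays of Cpr66Cb were the closest of any member (SD 0.04), and it was at least 32.9-fold lower in each arrest genotype.

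The remaining members have no role that can be given here. CG31797 read 2.84, 2.21 and 2.25 in Med22RNAi, 2.16 on all 3 arrays of aly and 2.16 on all 3 of sa, against 10.06, 9.41 and 8.97 in wild type, and was at least 89.2-fold lower. The probe set with no symbol was at 2.11 on all 9 arrest arrays, against 8.36, 9.08 and 8.97 in wild type, and was at least 55.9-fold lower. These probe sets held the second and the fourth highest wild-type means of the set. CG32987 read 2.99, 2.43 and 2.55 in Med22RNAi, 2.12 on all 3 arrays of aly, and 2.38, 3.22 and 2.28 in sa, against 7.76, 8.49 and 8.42 in wild type. In Med22RNAi and in aly it was at least 37.3-fold lower, and 1 of its sa arrays stood above 3. CG11300 was at 2.11 in Med22RNAi and in aly and at 2.11, 2.11 and 2.15 in sa, against 7.44, 8.05 and 8.53 in wild type. Its wild-type mean of 8.004 was the lowest of the set, and it was at least 32.1-fold lower in each arrest genotype.

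The members differed in how firmly they sat inside the limits. All arrays lay below 3 for 12 members in Med22RNAi, for 13 in aly and for 9 in sa, and 8 members were below 3 on all 9 arrest arrays. Every wild-type array was at least 8 for 8 members, and 7 met both conditions: CG13675, CG31797, CG9449, the probe set with no symbol, CG11374, lobo and Cpr66Cb. The 4 members with an sa array above 3 (ldd, pip, CG32987 and Pgam5-2) were high on 2 of the arrays, pip and CG32987 on sa replicate 2 and ldd and Pgam5-2 on sa replicate 3. The highest member mean was 2.78 in Med22RNAi, where the median was 2.33. In aly the highest was 2.68 with a median of 2.20, and in sa it was 2.85 with a median of 2.34.

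In wild type the members were bright but not among the brightest transcripts of the testis. Their wild-type means ranged from 8.004 to 10.69 with a median of 8.36, above those of 70.1% to 86.3% of all probe sets. Wild-type replicate 1 was the lowest of the 3 arrays for 8 members, replicate 3 for 4 and replicate 2 for 1. The SD over the wild-type arrays was 0.04 to 0.60, with a median of 0.32, against a median of 0.27 in the 3034 other probe sets between the limit of 8 and the level of CG13675.

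The limit that removed most probe sets was the one in Med22RNAi. Of the 5610 probe sets with a wild-type mean of at least 8, 643 (11.5%) were below 3 in aly, 45 (0.802%) in sa and 30 (0.535%) in Med22RNAi. All 13 probe sets that were below 3 in both Med22RNAi and sa were also below 3 in aly, and they are the members. A further 28 were below 3 in aly and sa but not in Med22RNAi, where they had a median of 4.69 and a range of 3.61 to 7.97. Of the 17 that were below 3 in Med22RNAi without being members, 15 were also below 3 in aly, and their median in sa was 4.91. The 587 that were below 3 in aly alone had a median of 8.46 in Med22RNAi and of 8.10 in sa. The comparisons share their wild-type arrays, and the counts follow from the limits.

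The members and the transcripts below 3 in each genotype were also counted along the scale of wild-type signal. Between 8 and 9 there were 10 members among 1181 probe sets, between 9 and 10 there were 2 among 1101, between 10 and 11 there was 1 among 1086, and from 11 up there was 0 among 2242. In Med22RNAi the share of probe sets below 3 was 1.61%, 0.817%, 0.184% and 0.0% in these bands, and in sa it was 1.86%, 0.908%, 0.921% and 0.134%. In aly it was 4.91%, 6.45%, 10.9% and 17.7%, so that the brightest wild-type transcripts held the largest share below 3 in aly and the smallest in Med22RNAi and in sa.

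**Figure D2:**
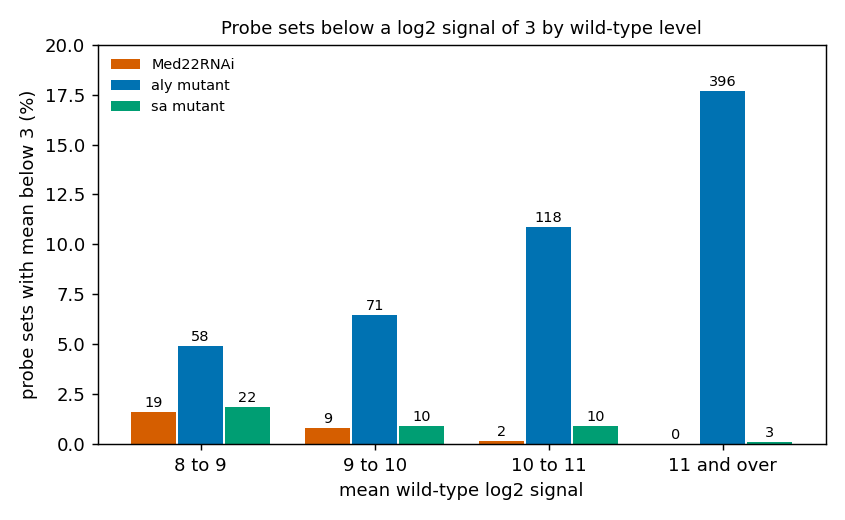
Share of probe sets with a mean below a log2 of 3 (y axis, percent) in 4 bands of mean wild-type log2 signal (x axis), with bars for Med22RNAi, aly and sa and the number of probe sets above each bar. The aly bars grow to 17.7% in the brightest band, where Med22RNAi has 0 and sa has 3 probe sets.

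Some transcripts lay just outside the limits. On the wild-type side these were the other probe set of CG13675 with a wild-type mean of 7.96, CG9825 with 7.95, lncRNA:CR43904 with 7.86, CG6435 with 7.74 and CG13230 with 7.65, all with arrest means below 3. On the arrest side the nearest was Cul3, a scaffold of ubiquitin ligases needed for sperm individualization, with means of 2.99 in Med22RNAi, 2.67 in aly and 3.04 in sa, against 9.96 in wild type. It was followed by CG31815, t-Grip128, CG43321 and CG11629, whose highest arrest means were 3.54, 3.56, 3.61 and 3.70. Just inside were CG11300, Cpr66Cb and ODA-Dnal1 with wild-type means of 8.004, 8.04 and 8.06, and Pgam5-2 and CG11374 with sa means of 2.85 and 2.78.

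A gene could be read by more than 1 probe set, and the further ones did not all show a loss. Of the 12 genes, 7 had 1 probe set and 5 had 13 more between them. The further probe set of CG13675 was at 2.11 on 8 of the 9 arrest arrays and at 2.42 on aly replicate 3, against 8.62, 8.21 and 7.06 in wild type, the same pattern as in the member. The further probe sets of CG9449, ldd and lobo were brighter in wild type than the member probe sets, and kept signal in some or all of the arrest genotypes. That of lobo read 8.81, 7.92 and 8.71 in Med22RNAi, 2.82, 2.96 and 2.82 in aly, and 3.19, 2.96 and 4.34 in sa, against 11.85, 11.94 and 11.70 in wild type. By this probe set lobo was near the floor in aly and sa only, and lay -3.35 from wild type in Med22RNAi on the log2 scale. That of CG9449 read 6.93, 6.07 and 6.85 in Med22RNAi, 6.35, 4.58 and 4.30 in aly, and 5.01, 5.62 and 5.47 in sa, against 10.56, 10.77 and 10.21 in wild type. That of ldd read 5.86, 4.94 and 5.72 in Med22RNAi, 4.60, 4.39 and 4.23 in aly, and 6.82, 6.28 and 7.47 in sa, against 9.92, 9.75 and 9.99 in wild type. All arrest arrays of both were below all wild-type arrays and above 3, so signal assigned to these genes remained.

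The gene pip had 9 further probe sets, and 7 of them lay below 3 on all 12 arrays. One that did not read 7.30, 7.11 and 7.49 in Med22RNAi, 5.76, 5.92 and 5.17 in aly, and 7.31, 7.32 and 7.61 in sa, against 6.22, 7.54 and 7.91 in wild type, where the Med22RNAi and sa arrays overlapped with wild type. The other was dim throughout, at 2.11 in Med22RNAi and aly and at 2.31, 2.16 and 2.27 in sa, against 3.16, 4.17 and 2.35 in wild type. The loss measured for pip is thus that of the part of the gene read by 1 of its 10 probe sets. The stretch of transcript that each probe set reads was not compared.

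**Figure D3:**
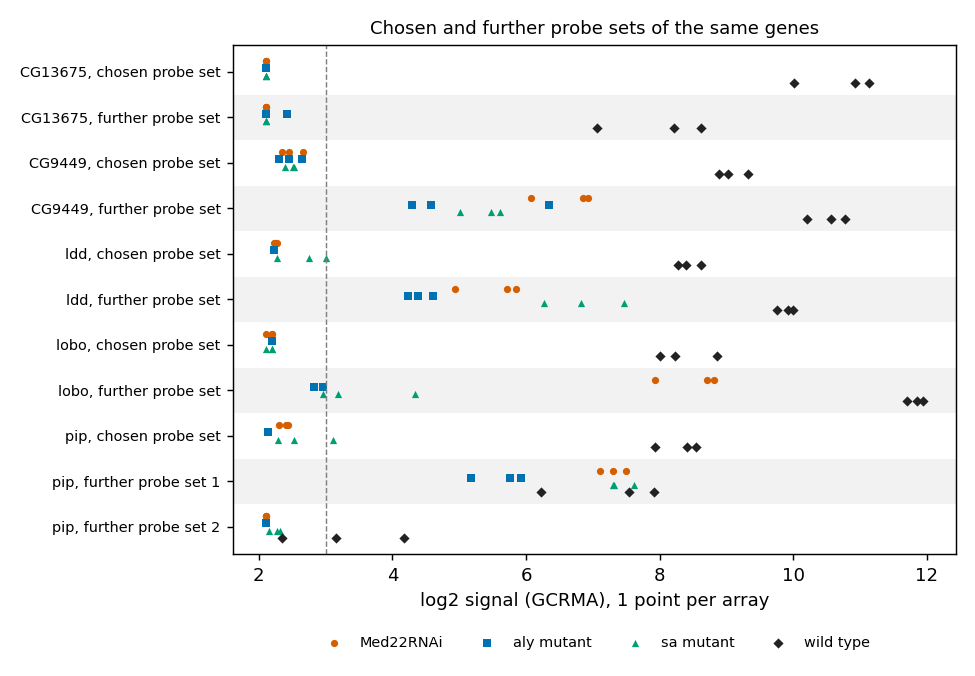
Log2 signal, 1 point per array, of the chosen and the further probe sets of CG13675, CG9449, ldd, lobo and pip in Med22RNAi, aly, sa and wild type, leaving out the 7 pip probe sets below 3 on all arrays. The dashed line marks a log2 of 3, and the further probe set of lobo lies at 7.92 to 8.81 in Med22RNAi and at 2.82 to 4.34 in aly and sa.

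Genes next to the members on the chromosome were measured on the same arrays and were not used by the rule. Each member gene has 1 neighbour on either side in the Release 6 gene table, 24 in all, of which 16 had a probe set, 7 had a wild-type mean of at least 8 and 0 were members. Calls needed an adjusted p under 0.05 from limma, over all 18769 probe sets, and a change of at least 4-fold. In Med22RNAi 4 of the 16 were lower and 4 higher than in wild type, where 9.02% and 11.3% of all probe sets were called. In aly 4 were lower and 3 higher (10.3% and 14.3% of all probe sets), and in sa 4 were lower and 2 higher (7.69% and 9.52%). Among all probe sets with a wild-type mean of at least 8, as 7 of the 16 had, 24.4%, 28.3% and 21.5% were called lower in Med22RNAi, aly and sa. The median log2 change of the 16 was 0.61 in Med22RNAi, 0.01 in aly and 0.41 in sa, against 0.00 over all probe sets in each comparison. With each genotype set at 3 where all its arrays lay below 3, these medians were 0.44, 0.16 and 0.33.

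The same 4 neighbours were lower in each arrest genotype, beside CG9449, CG32987 and Pgam5-2. CG9451, like its neighbour CG9449 a predicted acid phosphatase, had means of 4.69 in Med22RNAi, 2.56 in aly and 3.76 in sa, against 7.92 in wild type. Its log2 change was -3.23 ± 0.32 (SE) in Med22RNAi and -4.15 in sa, and it was at least 30.2-fold lower in aly, with limma adjusted p = 2.94e-05, 6.62e-06 and 6.74e-07. CG32988, beside CG32987, had means of 7.35, 2.77 and 4.45, against 11.01 in wild type, with a log2 change of -3.66 ± 0.36 (SE) in Med22RNAi and -6.56 in sa and a fall of at least 257-fold in aly. It was called lower in all 3 genotypes but was near the floor in aly only. Both neighbours of Pgam5-2 were lower too. CG15873 had means of 7.44 in Med22RNAi, 2.43 in aly and 7.49 in sa, against 10.62 in wild type, and CG3483 had 9.70, 2.89 and 9.50, against arrays of 12.58, 13.15 and 13.26 in wild type. The log2 change of CG3483 was -3.30 ± 0.27 (SE) for Med22RNAi and -3.50 for sa, and it was at least 1022-fold lower in aly. None of these 4 was below 3 in Med22RNAi or in sa.

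Other neighbours were higher. The hairpin RNA gene hpRNA:CR33940, on the other side of CG9449, had log2 changes of 2.61 for Med22RNAi, 3.21 for aly and 2.84 for sa, and its arrest arrays did not overlap with wild type. Non1, which encodes a GTP-binding protein of the nucleolus and lies beside ODA-Dnal1, changed by 2.57 in Med22RNAi and 3.24 in aly, and its change of 1.84 in sa was under the fold limit. CG32986, on the other side of CG32987, was at 5.84 in Med22RNAi and 5.19 in sa, against 2.19 in wild type, and stayed at 2.19 in aly. Pex2, a peroxisome assembly gene beside Cpr66Cb, changed by 2.504 in Med22RNAi, and RecQ4, a DNA helicase gene beside CG13675, was called higher in aly, at 4.88 against 2.65 in wild type, where all arrays lay below 3. Beside CG11374 lies galectin, a gene of the same family, with means of 9.65, 9.24 and 9.17, against 8.52 in wild type, which did not reach 4-fold. The gene fal, which overlaps pip, had means of 10.41, 9.54 and 9.37, against 8.64 in wild type, and also stayed under 4-fold. In the plot of the neighbours, CG9449 and CG32987 each have a neighbour with lower and a neighbour with higher signal than in wild type.

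**Figure D4:**
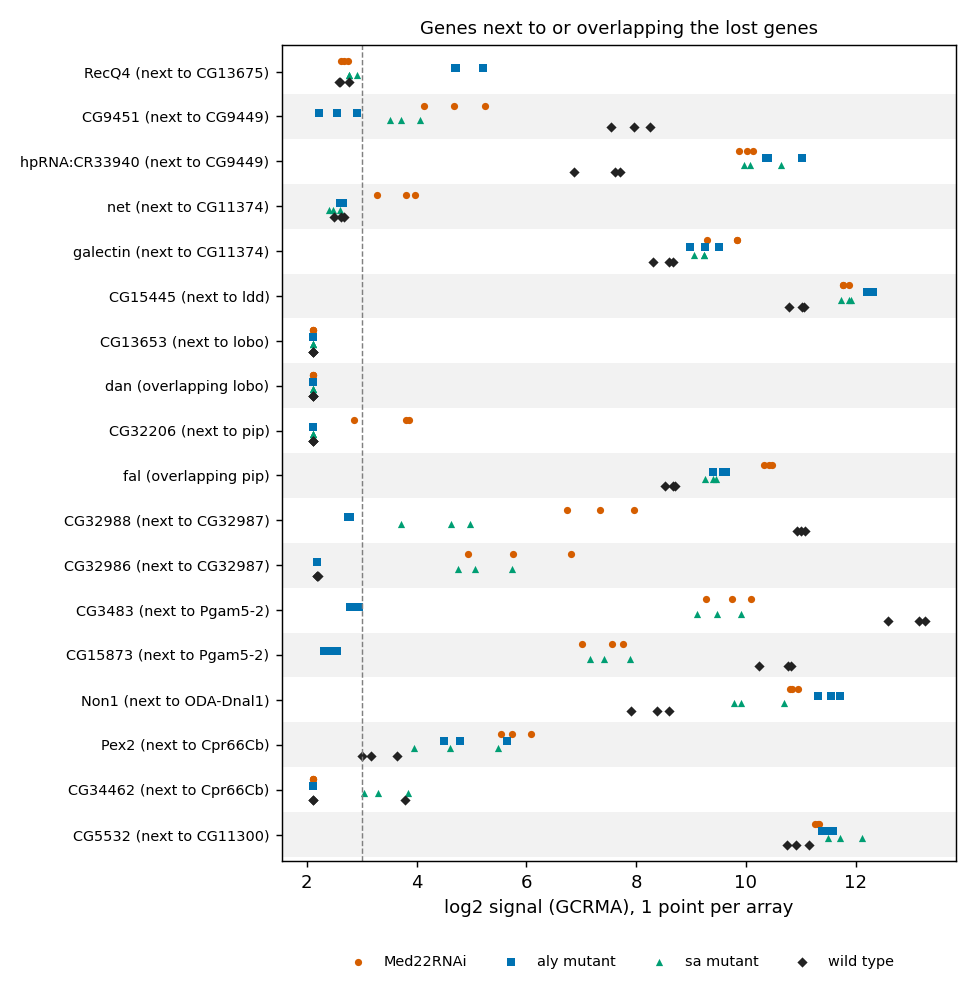
Log2 signal, 1 point per array, of the 16 measured neighbours and 2 overlapping genes of the members in Med22RNAi, aly, sa and wild type, with the member gene in brackets. The dashed line marks a log2 of 3, below which CG9451, CG32988, CG15873 and CG3483 lie in aly but not in Med22RNAi or sa.

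Genes of the same families as the members were collected by symbol, with the members known. Of 25 other genes of the sperm axoneme or its assembly, 15 were lower in Med22RNAi, 17 in aly and 14 in sa, and 0 were higher. The median log2 changes were -2.52, -3.82 and -2.18, and -2.19, -3.82 and -1.91 with genes below 3 on all arrays of a genotype set at 3 there. The share called lower among probe sets with a wild-type mean of at least 8 was 24.4% in Med22RNAi, 28.3% in aly and 21.5% in sa. These counts include the Y-linked dynein heavy chains kl-2, kl-3 and kl-5, whose wild-type arrays were uneven, and fits to each arrest genotype with wild type only, in which these 3 were not called, gave 12, 14 and 11.

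Each of these genes was represented by its brightest probe set, whereas lobo entered the members by its dimmer one. The brighter probe set of lobo had means of 8.48 in Med22RNAi, 2.87 in aly and 3.50 in sa, against 11.83 in wild type. The levels of lobo as a member and of these genes are therefore not like for like. Of the 17 with a wild-type mean of at least 8, 0 were below 3 in Med22RNAi, 4 in aly and 0 in sa. Over all probe sets with such a wild-type mean, not only the brightest of a gene, the shares below 3 were 0.535%, 11.5% and 0.802%. Rsph9, of the radial spoke head, had means of 9.53 in Med22RNAi, 2.22 in aly and 8.84 in sa, against 12.05 in wild type. Tektin-A, a filament protein of the doublet wall, had 10.44, 2.97 and 11.29, against 13.49 in wild type. Dhc16F, an axonemal dynein heavy chain, had means of 3.92 in Med22RNAi, 2.93 in aly and 8.32 in sa, against 9.83 in wild type. Dhc98D, another dynein heavy chain, was called lower in Med22RNAi (-3.50) and was at 0.16 in aly on the log2 scale, with means of 5.51, 9.17 and 7.55, against 9.01 in wild type. The direct difference of Dhc98D between Med22RNAi and aly was -3.66 ± 0.32 (SE, limma adjusted p = 1.52e-05).

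**Figure D5:**
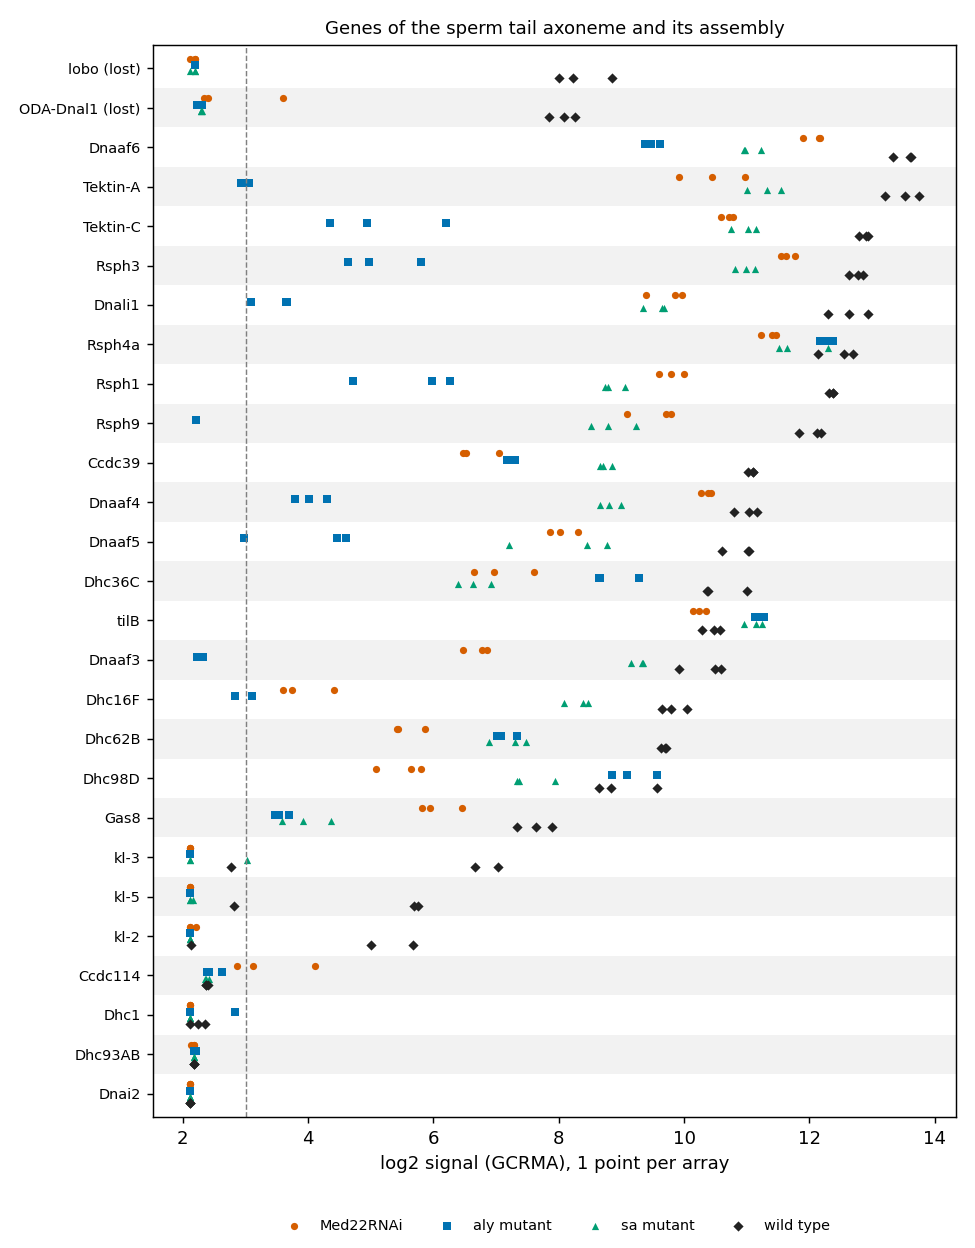
Log2 signal, 1 point per array, of lobo, ODA-Dnal1 and 25 other genes of the axoneme and its assembly in Med22RNAi, aly, sa and wild type, in order of wild-type level below the members. The row of lobo shows its dimmer, member probe set, whereas the other genes are shown by their brightest. The dashed line marks a log2 of 3, and of the 17 other genes with a wild-type mean of at least 8, 4 have a mean below it in aly and 0 in Med22RNAi or sa. Over all probe sets with such a wild-type mean, 11.5% are below it in aly, 0.535% in Med22RNAi and 0.802% in sa.

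The other families were mixed. Among 7 further ABCA transporters measured, 4 were lower in Med22RNAi, 5 in aly and 2 in sa, and 5 of the 7 had a wild-type mean of at least 8, where 24.4%, 28.3% and 21.5% of probe sets were called lower. CG31213 was at 5.42 in Med22RNAi, 2.30 in aly and 2.78 in sa, against 8.81 in wild type. CG6052 was at 2.11, 2.11 and 2.15, against 5.28 in wild type, which put it at the floor in every arrest genotype from a wild-type level under that of the members. Of 4 further galectins 0 were called by limma in any comparison, since none changed by 4-fold. By p alone, 3 in Med22RNAi, 3 in aly and 2 in sa were under 0.05, both unadjusted and adjusted. CG13950 was near the floor at 2.17, 2.16 and 2.14, against 3.77 in wild type. It was under the fold limit (limma adjusted p = 0.00733, 0.0071 and 0.00733). Of 4 further acid phosphatases, 1 was lower in Med22RNAi, 2 in aly and 1 in sa, with CG9451 in each, against 9.02%, 10.3% and 7.69% of all probe sets. Pgam5, the relative of Pgam5-2, had means of 10.83, 12.16 and 11.75, against 10.11 in wild type. Its change of 2.05 in aly passed the test, and without wild-type replicate 1 it was 1.79, under the fold limit. Hs2st, a heparan sulfate sulfotransferase related to pip, had 10.37, 8.82 and 9.17, against 7.80 in wild type, and its change of 2.57 in Med22RNAi passed.

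Of 65 further cuticular protein genes of the Cpr family, 42 were below 3 on all 12 arrays. Those lower were 6 in Med22RNAi, 4 in aly and 5 in sa, shares near or under the 9.02%, 10.3% and 7.69% called lower over all probe sets, and 0, 3 and 1 were higher. Cpr31A, Cpr65Ec, Cpr78Cc and Cpr92A were lower in all 3 genotypes, and like Cpr66Cb each was below 3 on all 9 arrest arrays. Their wild-type means were 5.66, 6.36, 5.90 and 5.90, which put them at least 6.31-fold, 10.2-fold, 7.45-fold and 7.44-fold lower. A mean below 3 was usual in this family, with 57 of the 65 in Med22RNAi, 57 in aly and 58 in sa. Of the 2 with a wild-type mean of at least 8, 0 were below 3 in any arrest genotype.

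None of the lists of sperm genes compared next held a member, and lobo and ODA-Dnal1 were not on them. Members were 0.232% of all probe sets with a wild-type mean of at least 8. Across 60 genes of sperm chromatin and tail, of the comet and cup groups that are transcribed after meiosis, of the Y chromosome and of the testis proteasome, 29 were lower in Med22RNAi, 40 in aly and 34 in sa, and 0, 1 and 0 were higher. Of these, 5 (Tektin-A, Tektin-C, kl-2, kl-3 and kl-5) are also among the axonemal genes, and fits to 2 genotypes only gave 26, 37 and 31. The share called lower among all probe sets with a wild-type mean of at least 8 was 24.4%, 28.3% and 21.5%. Of the 55 list genes that bright, 0 were below 3 in Med22RNAi, 17 in aly and 0 in sa. Over all probe sets that bright, the shares below 3 were 0.535%, 11.5% and 0.802%. Below a wild-type mean of 8, the Y-linked gene Ppr-Y had means of 2.69 in Med22RNAi, 2.17 in aly and 2.15 in sa, against 6.83 in wild type. The cup gene t-cup was at 2.53 in aly and 3.56 in sa, but at 9.78 in Med22RNAi, against 12.30 in wild type. The sperm nuclear protein gene ProtB was at 11.17, 4.66 and 8.01, against 13.59 in wild type.

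Markers of other tissues were measured on the same arrays. All 18 measured genes of the accessory gland had signal in every genotype, with the lowest genotype mean at 4.58, although the labels say that the glands were removed. Their summed signal, on the log2 scale, spanned 14.53 to 16.44 over the Med22RNAi arrays, 13.60 to 14.27 over those of aly and 14.51 to 15.94 over those of sa, against 14.66 to 17.63 over those of wild type. Of the 18, limma called 0 in Med22RNAi, 3 lower in aly and 0 in sa, and 1, 9 and 0 had an unadjusted p under 0.05. A wild-type mean of at least 8 was found for 17 of them, and 24.4%, 28.3% and 21.5% of all such probe sets were called lower. Their mean level was 11.01 on Med22RNAi replicate 3, against 9.43 and 10.11 on wild-type replicates 2 and 3. It was highest, at 12.77, on wild-type replicate 1. Of 5 markers of the ejaculatory duct and bulb, 1 was below 3 on all arrays, and their summed signal spanned 13.76 to 14.57 over the Med22RNAi arrays, 12.39 to 12.76 over those of aly and 12.36 to 12.53 over those of sa, against 12.12 to 15.12 over those of wild type. Of 5 fat body markers, 2 (Yp1 and Yp2) were below 3 on all arrays. Those called lower were 1 in Med22RNAi, 1 in aly and 2 in sa, against 9.02%, 10.3% and 7.69% of all probe sets. The summed signal of the 5 spanned 9.56 to 9.97 over the Med22RNAi arrays, 7.37 to 8.52 over those of aly and 8.60 to 9.57 over those of sa. Over those of wild type it spanned 11.41 to 12.25, so that all 9 arrest arrays lay below the wild-type arrays. The lipoprotein gene apolpp, the highest of them in wild type, had means of 9.49, 3.85 and 8.25, against 11.46 in wild type. The part of these tissues in the levels of the members was not tested. In Med22RNAi 3 of 8 muscle genes and 4 of 8 hemocyte genes were higher than in wild type and 0 lower, against 11.3% of all probe sets higher. In aly 2 muscle genes were lower and 0 higher, and 1 hemocyte gene was lower and 1 higher. In sa 1 muscle gene was lower and 0 higher, and 0 hemocyte genes were lower and 1 higher. The part of muscle and hemocytes in the levels of Non1, Pex2 and Hs2st was not tested.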

How the data were processed

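RNA of 12 testis samples was measured on Affymetrix Drosophila 2.0 arrays. The authors deposited log2 values made with GCRMA, whose version is not given in the sources used here. Of 18952 rows, 183 control probe sets were left out, and no filter was set on dim probe sets. Groups came from the labels. Gene symbols were read from the array's annotation, updated by Entrez ID to the Release 6 gene table, with exactly 1 symbol for 13647 probe sets, several for 402 and none for 4720. Of the 13647, 13544 were found in that table, which also gave the neighbours.

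Members were described without a test. Other genes were compared with limma 3.58.1 (lmFit and eBayes, 1 mean per genotype over all 12 arrays) in R 4.3.3, with Benjamini-Hochberg adjustment over 18769 probe sets, after a test on simulated data. Where more than 1 probe set read a gene, lists used the brightest by its 12-array mean. Python 3.11.15, pandas 2.3.3 and matplotlib 3.10.9 were used for tables and figures. The members and lists were chosen with earlier results of these data known. The rule for named genes took every member with 1 symbol and its further probe sets, neighbours and family genes that were called, the 5 probe sets just outside each limit, and up to 3 called genes per list. Named genes that were not called (fest, twe, galectin, CG13950, fal, Yp1 and Yp2) were chosen after their values were seen. Families were taken by symbol in place of a planned comparison of protein sequences, which was not run, and sequences were not used here. The number of arrays limits the precision.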

Additional observations from a re-analysis of the deposited data

Results flagged for a closer look

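Direct comparisons between the arrest genotypes were made for the neighbours and family genes, other than Cpr genes, that were called against wild type. Differences of at least 64-fold are given here. These comparisons share no wild-type arrays, and each value is a log2 difference with its adjusted p from limma over all probe sets. Where all arrays of a genotype lay below 3, the fitted difference depends on background, and a lower bound with that genotype set at 3 is given beside it. Of the axonemal genes, Tektin-A was 7.47 higher in Med22RNAi than in aly (adjusted p = 5.57e-08) and -8.32 in aly minus sa (adjusted p = 3.64e-08), with an aly mean of 2.97 near the floor. Rsph9 was at 7.31 for Med22RNAi minus aly (adjusted p = 2.71e-08) and at -6.62 for aly minus sa (adjusted p = 5.52e-08), with aly at least 92.3-fold lower than Med22RNAi and at least 57.2-fold lower than sa. Dnali1, an axonemal dynein light chain, was at 6.27 for Med22RNAi minus aly (adjusted p = 7.40e-08) and at -6.09 for aly minus sa (adjusted p = 1.08e-07). The dynein assembly factors Dnaaf3 and Dnaaf4 were at -7.00 for aly minus sa (adjusted p = 9.27e-09) and at 6.32 for Med22RNAi minus aly (adjusted p = 7.78e-09), and Dnaaf3 was at least 77.5-fold lower in aly than in sa. Rsph3, of the radial spoke, was at 6.51 for Med22RNAi minus aly (adjusted p = 1.13e-07). The neighbour CG3483 of Pgam5-2 was at 6.81 for Med22RNAi minus aly (adjusted p = 1.27e-07) and at -6.60 for aly minus sa (adjusted p = 1.85e-07), with aly at least 104-fold lower than Med22RNAi and at least 90.2-fold lower than sa. The ABCA transporter CG1494 was at -6.29 for aly minus sa (adjusted p = 7.13e-09), with means of 2.99 in aly, near the floor, and 9.29 in sa, against 8.32 in wild type. In all 12 comparisons aly was the lower genotype.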

How the results depend on the processing

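The number of members followed the limits. It was 24 with a wild-type minimum of 7, 3 with a minimum of 9, 6 with an arrest limit of 2.5, 32 with a limit of 4, and 7 when every array had to be on its side of the limits. Leaving out each array in turn gave 11 to 15, and applying quantile normalization again gave 15, of which 11 were shared with the 13. Centring each array on the common median, which shifts every log2 change (-0.46 for Med22RNAi, 0.64 for aly and -0.24 for sa), left 9, without CG11374, CG9449, Cpr66Cb and Pgam5-2. Between genotypes, the deviations of arrays with the same replicate number correlated at -0.27 to 0.33. Arrays with different numbers correlated at -0.24 to 0.33. These ranges show no sign that the numbers pair the arrays, but with 3 arrays per genotype they cannot exclude it. With a replicate block the counts of lower neighbours were 4, 4 and 4 in Med22RNAi, aly and sa, those of axonemal genes 14, 16 and 12, and those of sperm genes 28, 39 and 32. Leaving out each array gave 4 lower neighbours in each genotype, 13 to 15, 15 to 17 and 12 to 14 axonemal genes, and 27 to 29, 38 to 40 and 30 to 34 sperm genes. Single calls were checked for the neighbours and for family genes other than the Cpr genes. Of their 82 called changes, 14 lost the call under at least 1 alternative and 0 reversed. Those lost were kl-2, kl-3 and kl-5 in all 3 comparisons, Abca3 in sa, Dhc62B and Pgam5 in aly, and Pex2 and Tektin-C in Med22RNAi. The calls of single Cpr genes, and of genes found only in the other lists, were not checked in this way. The families were listed, and their alternatives run, after the data were seen. The planned comparison at a stricter blastp e-value was not run. Signals near 2.11 carry no order, so folds of the members are given only as bounds.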
